A study of Mus musculus with 12 samples.

Results

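Oxidative phosphorylation (OXPHOS) genes were followed in the neocortex of Chd8+/+ and Chd8+/- mice. They were chosen by symbol from the 46603 genes counted, as the subunits of complexes I to V encoded in the nucleus or in mitochondrial DNA. Of 105 symbols that matched, 10 processed pseudogenes and 1 assembly factor (Cox7a2l) were left out, which left 94 genes. The nucleus encodes 81 of them, with 35 in complex I, 4 in complex II, 8 in complex III, 17 in complex IV and 17 in complex V. Mitochondrial DNA encodes the other 13, with 7 in complex I, 1 in complex III, 3 in complex IV and 2 in complex V. The rule reads symbols and uses no threshold on a measured value.

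RNA was sequenced from microdissected cortices on the C57Bl/6J background, at embryonic day 12.5 (E12.5), where both hemispheres were pooled, and at postnatal day 5 (P5), where 1 hemisphere was used, with n = 3 libraries in each of the groups E12.5 Chd8+/+, E12.5 Chd8+/-, P5 Chd8+/+ and P5 Chd8+/-. No group received a treatment. Chd8+/- mice carry 1 null allele of Chd8, which encodes a chromatin remodeling factor. The allele was made by germline deletion with a ubiquitous β-actin Cre, so that every cell type of the tissue carries it. Stage, hemisphere number and count table change together and cannot be told apart. The labels do not say that the 3 libraries of a group came from separate litters, so p-values measure the spread between these libraries.

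The respiratory chain passes electrons from NADH through complex I, or from succinate through complex II, to complexes III and IV, and pumps protons across the inner mitochondrial membrane. Complex V, the ATP synthase, lets the protons flow back and makes ATP. Complexes I, III, IV and V are built from proteins of both genomes, whereas complex II is wholly nuclear. Neurons draw most of their ATP from this pathway, and neural progenitors rely more on glycolysis.

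The genome holds a complication for the mitochondrial genes, because a stretch of mouse chromosome 1 carries copies of them. A set of 7 such copies, all annotated as pseudogenes between chr1:24611535-24616197 (GRCm38), were compared with the mitochondrial transcripts of GENCODE M21. The sequence of mt-Nd4l (MT:9877-10173, plus strand), a complex I subunit, is shown because nearly all of it has an identical nuclear copy. Capitals mark the 294 of 297 bases that are the same in Gm10222.

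mt-Nd4l: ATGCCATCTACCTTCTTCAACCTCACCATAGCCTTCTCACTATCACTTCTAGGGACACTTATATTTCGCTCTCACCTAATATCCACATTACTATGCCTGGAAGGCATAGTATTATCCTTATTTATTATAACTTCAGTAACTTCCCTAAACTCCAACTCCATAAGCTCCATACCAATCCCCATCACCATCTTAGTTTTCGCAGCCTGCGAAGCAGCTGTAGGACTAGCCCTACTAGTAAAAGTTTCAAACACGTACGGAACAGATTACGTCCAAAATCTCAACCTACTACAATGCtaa

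In 5 mitochondrial genes, 1 identical run covered almost the whole transcript. The run took 99.6% of mt-Co2 and mt-Atp6, 99.9% of mt-Co3, 98.99% of mt-Nd4l and 98.3% of mt-Nd3. A shorter run covered 63.6% of mt-Nd4, 31.0% of mt-Co1 and 21.1% of mt-Atp8. The longest run that mt-Nd1, mt-Nd2, mt-Nd5, mt-Nd6 or mt-Cytb shared with any of the 7 copies was 16 bases. Over the 12 libraries, mt-Co2 had 285 counts and mt-Co3 had 383, although both encode catalytic or core subunits of complex IV, while mt-Co1, the third core subunit, had 5192839. Counts per base were 0.42 for mt-Co2 and 0.49 for mt-Co3, 9.20 for mt-Nd4l, 11.1 for mt-Nd3 and 272 for mt-Atp6, against 883 to 3675 for the 8 others. The nuclear copies themselves had 11 to 132 counts each. As recorded in the P5 table, counting left out reads placed at more than 1 position. Values of mt-Co2, mt-Co3, mt-Nd3 and mt-Nd4l rest on few reads and are not read here as levels of these transcripts. The part of the nuclear copies in these counts was not tested.

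**Figure D1:**
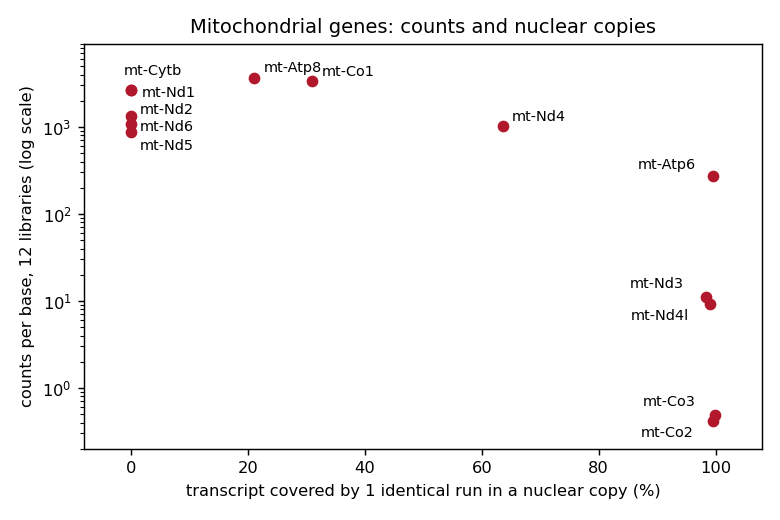
Counts per base of each of the 13 mitochondrially encoded OXPHOS genes, summed over 12 libraries (log scale), against the percentage of the transcript covered by 1 run of bases identical to a nuclear pseudogene. The 5 genes covered almost entirely lie between 0.42 and 272 counts per base, below the 8 others.

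Nuclear OXPHOS genes are known targets of the transcription factors NRF1 and GABP, an ETS family factor, and many have start sites with YY1 motifs. RefSeq start regions of GRCm38.p6, with 250 bases before and 50 after the start, were found for 67 of the 81 nuclear genes. An exact NRF1 motif (GCGCATGCGC, its own reverse complement) was present in 5 of the 67, or 7.46%, against 1.07% of 27025 genes with such regions. The ETS motif CCGGAAG, on either strand, was present in 16, or 23.9%, against 9.93% of all. The YY1 motif AAGATGGCG, on either strand, was present in 7, or 10.4%, against 1.64% of all. These motifs do not overlap one another in the regions shown here, and 25 of the 67 genes had at least 1 of them. The 180 bases before the start are shown for 4 genes on the minus strand with different changes between the stages: Cox6a1 (chr5:115348959-115349138), Atp5g2 (chr15:102671048-102671227), Atp5k (chr5:108434400-108434579) and Atp5g1 (chr11:96075632-96075811). Capitals mark NRF1 and ETS motifs.

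Cox6a1: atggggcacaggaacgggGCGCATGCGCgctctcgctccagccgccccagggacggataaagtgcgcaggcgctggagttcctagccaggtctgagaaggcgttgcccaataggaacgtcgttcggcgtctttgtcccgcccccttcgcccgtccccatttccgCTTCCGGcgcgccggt

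Atp5g2: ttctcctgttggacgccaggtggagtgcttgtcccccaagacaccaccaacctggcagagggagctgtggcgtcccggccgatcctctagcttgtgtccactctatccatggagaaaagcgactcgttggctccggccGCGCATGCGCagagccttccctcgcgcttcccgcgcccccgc

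Atp5k: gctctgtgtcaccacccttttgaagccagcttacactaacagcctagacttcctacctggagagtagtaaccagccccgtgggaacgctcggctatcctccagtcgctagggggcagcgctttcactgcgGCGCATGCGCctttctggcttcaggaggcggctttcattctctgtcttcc

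Atp5g1: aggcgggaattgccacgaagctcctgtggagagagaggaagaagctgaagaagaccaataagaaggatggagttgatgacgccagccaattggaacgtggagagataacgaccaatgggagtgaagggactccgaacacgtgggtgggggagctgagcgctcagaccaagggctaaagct

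Cox6a1 and Atp5g2 both carried the NRF1 motif and changed in opposite directions between the stages, as described next, whereas no motif of the 3 was found in this stretch of Atp5g1.

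Counts were scaled to a common library size (CPM, with TMM factors) and tested with edgeR's quasi-likelihood test with Benjamini-Hochberg adjustment at 0.05 over all genes that passed its filter on low counts. Total counts per library lay between 38774591 and 54695236. Chd8, which checks the labels, was 234, 229 and 235 CPM in E12.5 Chd8+/+ and 162, 167 and 161 CPM in E12.5 Chd8+/-. At P5 it was 151, 151 and 145 CPM in Chd8+/+ and 95.7, 98.6 and 95.0 CPM in Chd8+/-. The groups did not overlap at either stage. Cortical marker genes were present at both stages, and the summed level of the 11 progenitor markers was 4418 to 4731 CPM in the E12.5 libraries and 308 to 360 CPM in the P5 libraries. The 9 erythrocyte markers had a summed level of 3175 to 4507 CPM at E12.5 and 106 to 131 CPM at P5.

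Mitochondrially encoded OXPHOS genes took up more of the counts than the nuclear ones in every library. In Chd8+/+ libraries, they made up 2.46%, 2.89% and 2.64% of all counts at E12.5 and 3.45%, 3.61% and 3.29% at P5. The 81 nuclear genes made up 0.655%, 0.726% and 0.678% at E12.5 and 0.766%, 0.786% and 0.742% at P5. Both shares were higher in every P5 Chd8+/+ library than in any E12.5 Chd8+/+ library. The ratio of mitochondrial to nuclear counts was 3.88 ± 0.12 (SD, n = 3) at E12.5 and 4.51 ± 0.08 (SD, n = 3) at P5 in Chd8+/+. In Chd8+/- it was 4.17 ± 0.17 (SD, n = 3) at E12.5 and 4.02 ± 0.52 (SD, n = 3) at P5. The mitochondrial sums include the genes with nearly complete nuclear copies and low counts per base. They are shares of counts and not of RNA.

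**Figure D2:**
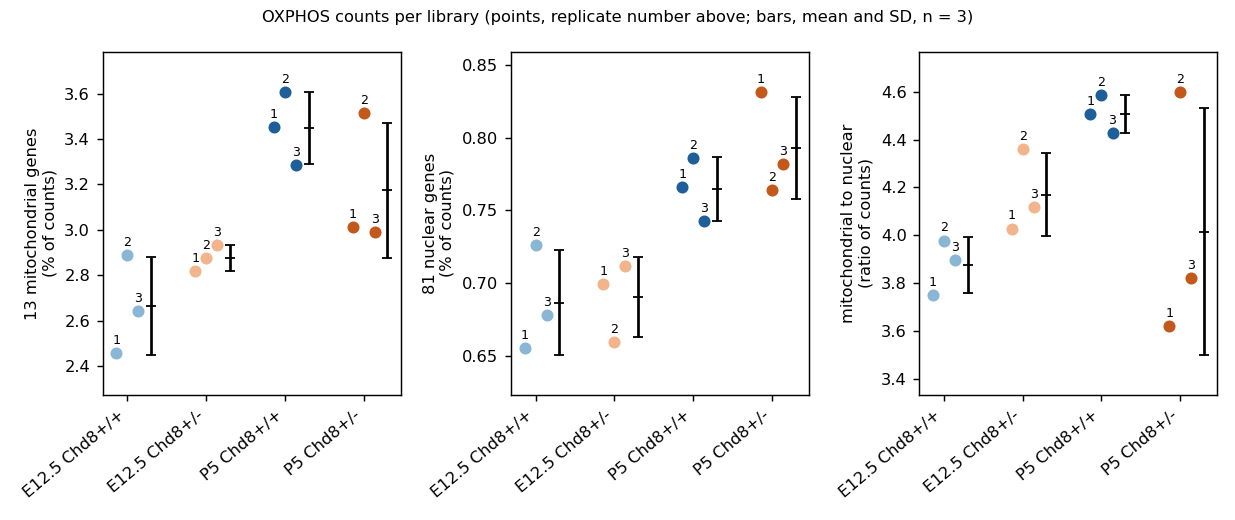
Share of all counts on the 13 mitochondrial and the 81 nuclear OXPHOS genes (%), and the ratio of these counts, in each of the 12 libraries, on axes that do not start at 0. Points are libraries with the replicate number above, and bars give the mean and SD of each group (n = 3). In P5 Chd8+/- the ratio is 3.62 and 3.82 in replicates 1 and 3 and 4.60 in replicate 2, which lies with the 3 P5 Chd8+/+ libraries.

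Per kilobase of merged exons in P5 Chd8+/+, the most abundant nuclear transcript was Cox6b1 with 308 CPM per kb, followed by Cox8a, Atp5a1 with 251 CPM per kb and Cox6a1 with 243 CPM per kb. Cox6b1, Cox8a and Cox6a1 encode small subunits of complex IV, and Atp5a1 encodes the α subunit of the catalytic head of complex V. mt-Atp8, a short gene of the ATP synthase that overlaps mt-Atp6, reached 7435 CPM per kb, mt-Co1 6595 CPM per kb, mt-Cytb 5879 CPM per kb and mt-Nd1 5659 CPM per kb. An identical nuclear run covers 21.1% of mt-Atp8 and 31.0% of mt-Co1. mt-Atp6, covered over 99.6%, had 554 CPM per kb. How far the copies bear on these levels was not tested, so their order is not read as a ranking of transcripts. The deposited length of a gene merges all of its transcripts, so that a gene with 1 long transcript, such as Atp5g1 with 4912 bases, has a low level per kilobase.

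The comparison of P5 with E12.5 in Chd8+/+ asks how the pathway differs between a neocortex of dividing progenitors and one of maturing neurons. Most OXPHOS genes of both genomes were higher at P5, and a smaller group, led by Atp5g2 and including the complex II genes Sdha and Sdhc, was lower. Of 78 nuclear genes tested, 49 rose and 11 fell, and 18 did not pass the test. The 49 include Cox6a2, which had 0 counts at E12.5 and passed the filter on low counts only through P5; without it 48 of 77 rose, with a median of 0.29. Over all 19676 genes tested, 83.1% passed, with 41.4% higher and 41.7% lower at P5. The median log2 fold change was 0.30 for nuclear OXPHOS genes, 0.55 for the 13 mitochondrial genes and -0.02 for all genes. Among the mitochondrial genes 12 rose, and mt-Co2, at 0.47 ± 0.27 CPM at E12.5 and 0.59 ± 0.33 CPM at P5 (SD, n = 3), did not pass. Without the 5 genes that have nearly complete nuclear copies, all 8 others rose, with a median of 0.51. The mitochondrial rRNA genes mt-Rnr1 and mt-Rnr2, which selection of mRNA should deplete, moved the same way, with 0.066 ± 0.005% of counts at E12.5 and 0.272 ± 0.018% at P5 (SD, n = 3), and their part in the result was not tested. The stages did not overlap for 49 nuclear and 12 mitochondrial genes that were higher at P5 and 10 nuclear genes that were lower, against 41.8% and 42.4% of all genes. These 49 again include Cox6a2. In Chd8+/-, where 82.9% of all genes tested passed, 41.3% higher and 41.6% lower, 50 nuclear genes rose and 8 fell, and 7 of the 13 mitochondrial genes rose, or 5 of the 8 without such copies, with a median of 0.21. The 50 also include Cox6a2, and without it 49 of 77 rose, with a median of 0.36. In Chd8+/- the stages did not overlap for 53 nuclear and 7 mitochondrial genes that were higher and 8 nuclear genes that were lower, against 41.9% and 42.2% of all genes. The 53 include Cox6a2 as well. Fewer cells of a type and less RNA per cell cannot be told apart in these bulk samples, and cell type markers moved with the stage in both directions. Beside the fall of the progenitor and erythrocyte markers given above, the summed level in Chd8+/+ went from 216 to 246 CPM at E12.5 to 1569 to 1637 CPM at P5 for 6 astrocyte markers, and from 722 to 812 CPM to 1439 to 1524 CPM for 9 excitatory neuron markers. It went from 57.9 to 61.6 CPM to 348 to 377 CPM for 9 striatal neuron markers, from 94.1 to 152 CPM to 450 to 584 CPM for 8 choroid plexus markers, and from 116 to 128 CPM to 474 to 510 CPM for 7 markers of the oligodendrocyte lineage. The part of these shifts in the result was not tested.

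The counts by complex are read against the 41.4% of all genes that were higher and the 41.7% that were lower, and differences between complexes were not tested. In complex IV without Cox6a2, 10 of 13 nuclear genes tested rose and 1 fell, with a median log2 fold change of 0.54. Complex III had 6 of 8 rising and 1 falling, with a median of 0.45, and complex I had 24 of 35 rising and 4 falling, with a median of 0.28. In complex V, 8 of 17 rose and 3 fell, with a median of 0.12. Complex II, which also belongs to the tricarboxylic acid cycle, had none of 4 rising and 2 falling, with a median of -0.07. Its catalytic subunit Sdha was 213, 216 and 219 CPM at E12.5 and 179, 188 and 180 CPM at P5, and the groups did not overlap (log2 fold change -0.24, SE 0.04, edgeR adjusted p = 7.69e-05). Sdhc, one of the membrane anchors of the complex, fell by 0.29 on the log2 scale (SE 0.05, edgeR adjusted p = 3.49e-05).

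**Figure D3:**
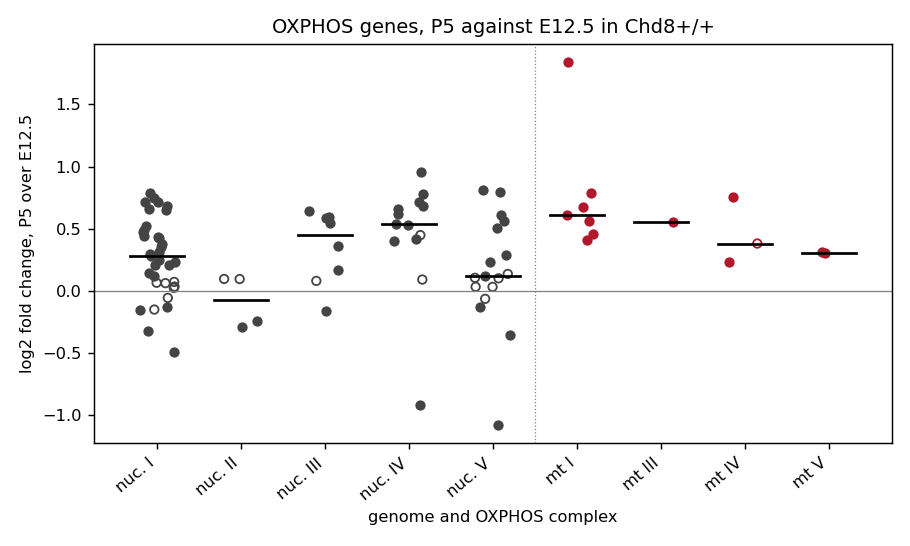
log2 fold change of each OXPHOS gene at P5 over E12.5 in Chd8+/+, by genome (nuc., nuclear; mt, mitochondrial) and complex. Filled points passed edgeR's test at an adjusted p under 0.05, open points did not, and lines are medians of the genes drawn; Cox6a2, with 0 counts at E12.5, is left out. Complex IV and the mitochondrial genes lie mostly above 0, and Atp5g2 is the lowest point.

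Subunit c of ATP synthase showed the sharpest contrast. Atp5g1, Atp5g2 and Atp5g3 encode the same mature protein, the subunit of the rotating ring, with different targeting peptides. Their shared end of the coding sequence is shown for the pair that moved apart, as the last 228 coding bases of GENCODE M21. Capitals mark the bases that differ, and 194 of the 228 were identical, with a longest identical run of 21 bases in the whole coding sequences.

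Atp5g1: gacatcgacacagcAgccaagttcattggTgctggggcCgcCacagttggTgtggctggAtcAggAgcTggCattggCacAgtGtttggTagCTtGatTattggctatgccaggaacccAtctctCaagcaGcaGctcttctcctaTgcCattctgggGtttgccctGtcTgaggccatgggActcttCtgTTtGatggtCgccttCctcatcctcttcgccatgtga

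Atp5g2: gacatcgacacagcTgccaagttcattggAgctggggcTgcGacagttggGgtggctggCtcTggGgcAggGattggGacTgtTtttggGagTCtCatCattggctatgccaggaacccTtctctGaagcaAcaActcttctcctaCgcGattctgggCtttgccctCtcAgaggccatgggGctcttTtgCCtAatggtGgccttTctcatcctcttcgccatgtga

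Atp5g2 was 109, 136 and 126 CPM at E12.5 and 58.3, 61.6 and 55.5 CPM at P5 in Chd8+/+ (log2 fold change -1.08, SE 0.07, edgeR adjusted p = 2.55e-09). Atp5g1 was 63.3, 72.6 and 69.0 CPM at E12.5 and 121, 122 and 116 CPM at P5 (log2 fold change 0.81, SE 0.06, edgeR adjusted p = 3.2e-09). Atp5g3 was 117, 130 and 124 CPM at E12.5 and 184, 185 and 178 CPM at P5 (log2 fold change 0.56, SE 0.05, edgeR adjusted p = 3.89e-08). None of the 3 genes overlapped between the stages, and Atp5g2 alone of them was lower at P5.

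**Figure D4:**
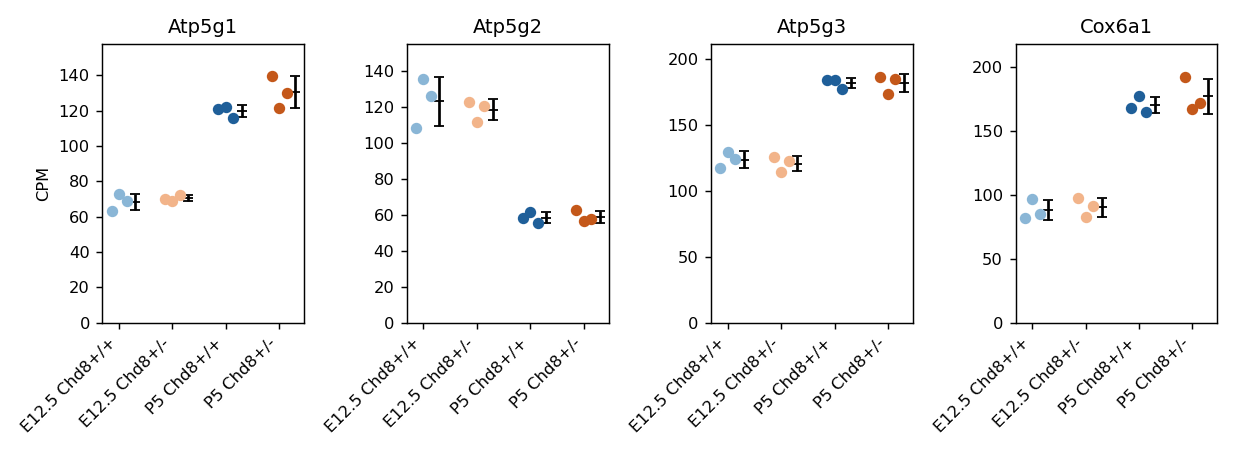
CPM of the 3 genes of ATP synthase subunit c and of Cox6a1 in each library. Points are libraries, and bars give the mean and SD (n = 3). Atp5g2 is 109 to 136 CPM in E12.5 Chd8+/+ and 55.5 to 61.6 CPM in P5 Chd8+/+, and the other 3 genes are higher at P5 in both genotypes.

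Complex IV has subunits with alternative genes for different tissues. Cox6a1, the widely expressed form of subunit 6a, rose from 81.8, 96.8 and 85.5 CPM to 168, 178 and 165 CPM, the largest log2 fold change of the nuclear genes tested that had counts at both stages (0.95, SE 0.07, edgeR adjusted p = 1.06e-08). Its counterpart Cox6a2, known from heart and skeletal muscle, had 0 counts in all E12.5 libraries and 1.83, 1.52 and 1.63 CPM in P5 Chd8+/+. Against a floor of 3 counts over the E12.5 Chd8+/+ group, which covers counting error only, Cox6a2 was at least 76.9-fold higher in P5 Chd8+/+. Cox6a2 made up only 1.03% of the pair per length in P5 Chd8+/+ and 1.08% in P5 Chd8+/-. The summed level of 8 muscle markers was 3.80 to 4.79 CPM in the E12.5 libraries and 13.7 to 14.8 CPM in the P5 libraries, and their part in the result was not tested.

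Cox6b2, known as the testis form of subunit 6b, fell from 3.75 ± 0.31 to 1.98 ± 0.33 CPM (SD, n = 3; log2 fold change -0.91, SE 0.16, edgeR adjusted p = 0.000114), while the widely expressed Cox6b1 rose (0.42, SE 0.08, edgeR adjusted p = 0.00017). Cox7a2 rose (0.66, edgeR adjusted p = 1.78e-06), and Cox7a1, the heart and muscle form, was 0.39 ± 0.06 CPM at E12.5 and 0.54 ± 0.09 CPM at P5 and did not pass (edgeR adjusted p = 0.134). Cox8a (0.78) and Cox7b (0.40) rose, whereas Cox8b had 1 count and Cox8c had 0 counts over all libraries, and Cox7b2 had 5 counts at E12.5 and 34 at P5. Ndufa4, now known as a complex IV subunit, rose (0.68, edgeR adjusted p = 2.97e-07), as did its relative Ndufa4l2, known to be induced by hypoxia, from 2.15 to 3.09 CPM (0.53, edgeR adjusted p = 0.00179). Cox4i1, the core nuclear subunit with a symbol outside the rule, rose by 0.47 on the log2 scale, and Cox4i2 was 1.07 ± 0.11 and 0.90 ± 0.22 CPM (edgeR adjusted p = 0.237). The more abundant gene of each pair, per length, made up at least 96.3% in every library.

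Other nuclear genes at the ends of the range were Ndufb2, an accessory subunit of complex I (19.1 to 32.9 CPM, log2 fold change 0.79), and Atp5s, a coupling factor of ATP synthase (6.80 to 11.8 CPM, log2 fold change 0.80). On the falling side stood Ndufa12 (66.4 to 47.3 CPM, log2 fold change -0.49) and Ndufb7 (54.4 to 43.4 CPM, log2 fold change -0.33) of complex I and Atp5h (113 to 88.4 CPM, log2 fold change -0.35), the d subunit of the ATP synthase stalk. All 5 passed edgeR's test, with adjusted p between 9.49e-08 and 0.000806. Among the mitochondrial genes with over 100 counts per base, the log2 fold change was 0.68 for mt-Nd4, 0.61 for mt-Nd6, 0.56 for mt-Nd2, 0.55 for mt-Cytb, 0.46 for mt-Nd1 and 0.41 for mt-Nd5. It was smaller for mt-Atp8 (0.31), mt-Atp6 (0.30) and mt-Co1 (0.23). The value of 1.84 for mt-Nd4l rests on 99 to 124 counts per library at E12.5 and 312 to 457 at P5.

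Gene length bore on the stage comparison. With a loess offset for gene length, 37 nuclear genes rose and 22 fell, with a median log2 fold change of 0.15 against 35.6% higher, 48.4% lower and a median of -0.24 over all genes, and 10 mitochondrial genes rose with a median of 0.43. The nuclear genes tested here still include Cox6a2, with 0 counts at E12.5, and no count without it was made for the offset. Atp5g2 (-1.33), Cox6a1 (0.96) and Atp5g1 (0.54) kept their directions. Of the genes that had risen, 4 nuclear genes (Atp5a1, Ndufb5, Ndufs3 and Ndufs4) and mt-Co1 had estimates below 0 with the offset. In Chd8+/- with the offset, 43 nuclear genes rose and 19 fell, with a median of 0.24 against 0.37 without it, where 36.1% of all genes were higher and 47.2% lower. Cox6a2 is again among the nuclear genes tested, and leaving it out gave a median of 0.36 in the fit without the offset. Of the mitochondrial genes in Chd8+/-, 4 rose (mt-Atp8, mt-Nd3, mt-Nd4l and mt-Nd6) and 2 fell (mt-Co1 and mt-Nd5), and the median was 0.10 with the offset and 0.22 without it.

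The comparison of genotypes at P5 asks how the loss of 1 Chd8 allele bears on the pathway in the postnatal neocortex. Nuclear OXPHOS genes leaned to higher values and mitochondrial genes to lower values in Chd8+/-, by small amounts, and no single gene passed edgeR's test. Of 78 nuclear genes tested, 63 had a higher estimate in Chd8+/-, or 80.8%, against 50.4% of all 18666 genes tested, and all 13 mitochondrial genes had a lower one. Genes measured in the same libraries are not independent. Counts of higher or lower members, here and elsewhere, therefore describe the lists and are not separate results. The median log2 fold change was 0.08 for the nuclear and -0.13 for the mitochondrial genes, against 0.0017 for all genes. edgeR called none of the 91 OXPHOS genes, where 0.00536% of all genes, Chd8 alone, was called. At an unadjusted p under 0.05 there were 30 nuclear genes, 28 of them higher, and 4 mitochondrial genes, all lower, against 17.8% of all genes, 8.0% higher and 9.77% lower. DESeq2 called 10 nuclear genes higher (Atp5e, Atp5j2, Cox5b, Cox7a2, Ndufa2, Ndufb10, Ndufs8, Uqcr10, Uqcr11 and Uqcrq), 1 nuclear gene lower (Ndufs1) and 0 mitochondrial genes, where it called 5.28% of all genes, 1.71% higher and 3.57% lower. Of 11 mitochondrial genes that DESeq2 tested, 7 had an unadjusted p under 0.05, all lower, against 19.6% of all genes, 10.8% lower.

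The libraries of P5 Chd8+/- were not alike. As deviations from the mean of the 6 P5 libraries on the log2 scale, the median of the nuclear genes was 0.12, -0.05 and 0.04 in Chd8+/- replicates 1, 2 and 3, and -0.04, 0.01 and -0.08 in Chd8+/+. The median of the mitochondrial genes was -0.16, 0.06 and -0.13 in Chd8+/- and 0.09, 0.16 and -0.01 in Chd8+/+. Replicate 2 of Chd8+/- thus lay within the Chd8+/+ libraries on both measures. Without it, edgeR called 9 nuclear genes higher and 3 mitochondrial genes lower (mt-Nd2, mt-Nd4 and mt-Nd5), where it called 1.72% of all genes, and the medians were 0.12 and -0.20. Without Chd8+/- replicate 1 the nuclear median was 0.04, and without Chd8+/+ replicate 2 the mitochondrial median was -0.08, with 0 OXPHOS genes called in either. Mitochondrial rRNA took up 0.242%, 0.280% and 0.456% of counts in Chd8+/- replicates 1, 2 and 3 and 0.251% to 0.286% in Chd8+/+, so that Chd8+/- replicate 3 stood apart in that measure. Without it the nuclear and mitochondrial medians were 0.10 and -0.10, with 0 OXPHOS genes called.

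**Figure D5:**
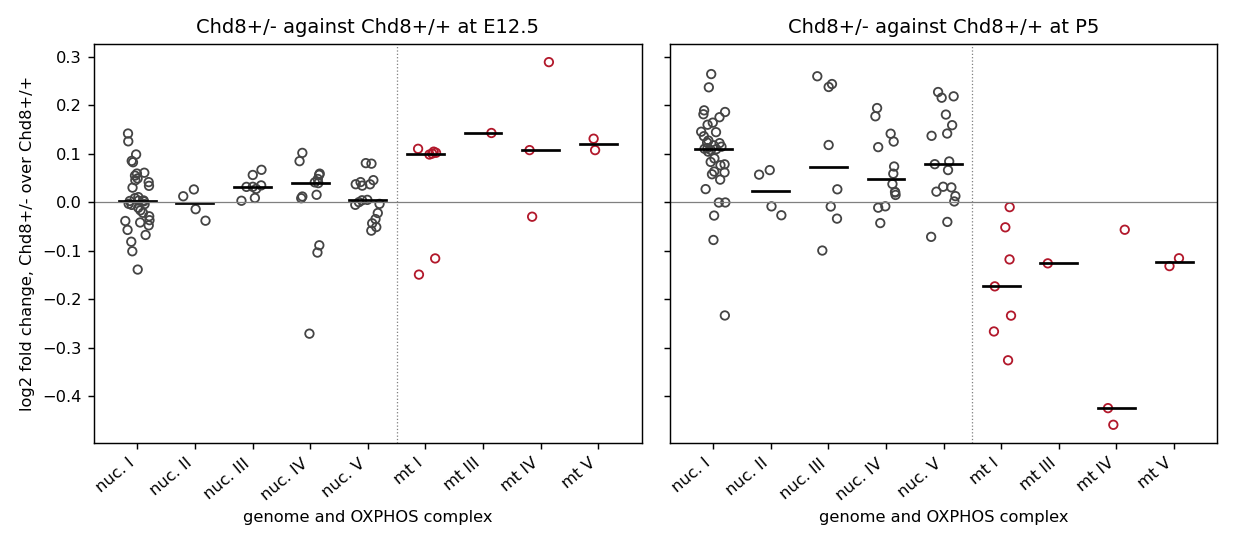
log2 fold change of each OXPHOS gene in Chd8+/- over Chd8+/+ at E12.5 (left) and P5 (right), by genome (nuc., nuclear; mt, mitochondrial) and complex. Open points did not pass edgeR's test at an adjusted p under 0.05, which is all of them, and lines are medians. At P5 all 13 mitochondrial genes lie below 0 and 63 of 78 nuclear genes above it.

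By complex, the nuclear median was 0.11 in complex I, with 30 of 35 estimates higher, and 0.08 in complex V, with 15 of 17 higher. It was 0.07 in complex III with 5 of 8 higher, 0.05 in complex IV with 11 of 14 higher, and 0.02 in complex II with 2 of 4 higher. The genotypes did not overlap for 11 nuclear genes with higher values in Chd8+/-, and for 2 nuclear genes and mt-Co3 with lower values, where 8.55% of all genes were apart with higher and 14.8% with lower values. The low counts of mt-Co3 gave 1.06, 0.919 and 0.883 CPM in Chd8+/+ and 0.551, 0.845 and 0.668 CPM in Chd8+/-. Ndufb10, a subunit of the membrane arm of complex I, was 52.4, 53.1 and 52.1 CPM in Chd8+/+ and 64.5, 58.6 and 60.6 CPM in Chd8+/- (log2 fold change 0.24, SE 0.04, edgeR adjusted p = 0.095). Uqcr10, a small subunit of complex III, was 52.6, 55.3 and 52.7 CPM in Chd8+/+ and 68.6, 57.6 and 64.0 CPM in Chd8+/- (log2 fold change 0.26, SE 0.06, edgeR adjusted p = 0.11). Both had every Chd8+/- library above every Chd8+/+ library, with replicate 2 the lowest of the Chd8+/- libraries.

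Atp5e, the ε subunit of ATP synthase, was 61.3, 64.8 and 62.2 CPM in Chd8+/+ and 79.8, 65.8 and 72.3 CPM in Chd8+/- (log2 fold change 0.23, SE 0.06, edgeR adjusted p = 0.128). Ndufa2 (0.26, SE 0.06, edgeR adjusted p = 0.116) and Ndufs8 (0.18, SE 0.05, edgeR adjusted p = 0.124), an accessory and an iron-sulfur subunit of complex I, were likewise apart between the genotypes. Ndufs1 went the other way. This largest subunit of complex I, which carries iron-sulfur clusters of the electron path, was 104, 113 and 94.8 CPM in Chd8+/+ and 83.8, 89.9 and 88.4 CPM in Chd8+/- (log2 fold change -0.23, SE 0.06, edgeR adjusted p = 0.111). With 8086 bases, Ndufs1 has the longest merged exons of the 81 nuclear genes. With an offset for gene length its log2 fold change was -0.18 (edgeR unadjusted p = 0.0058).

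Of the mitochondrial genes, mt-Nd5 was 3550, 3674 and 3178 CPM in Chd8+/+ and 2559, 3248 and 2743 CPM in Chd8+/- (log2 fold change -0.27, SE 0.08, edgeR adjusted p = 0.139). mt-Nd2 was 3180, 3319 and 2813 CPM in Chd8+/+ and 2440, 2900 and 2488 CPM in Chd8+/- (log2 fold change -0.23, SE 0.07, edgeR adjusted p = 0.144). In both, replicates 1 and 3 of Chd8+/- lay below all Chd8+/+ libraries and replicate 2 did not. The estimates were -0.17 for mt-Nd4, -0.13 for mt-Cytb, -0.13 for mt-Atp6, -0.12 for mt-Nd1, -0.12 for mt-Atp8 and -0.06 for mt-Co1. mt-Nd6, the only one of the 13 encoded on the light strand of mitochondrial DNA, had -0.01, with 1225, 1222 and 1222 CPM in Chd8+/+ and 1179, 1318 and 1106 CPM in Chd8+/-. The genes with few reads had estimates of -0.33 (mt-Nd4l), -0.46 (mt-Co3), -0.43 (mt-Co2) and -0.05 (mt-Nd3). Without the 5 genes that have nearly complete nuclear copies, all 8 others still had lower estimates, with a median of -0.12.

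Other measures moved with the genotype at P5. The slope of log2 CPM on log2 gene length was 0.010 to 0.016 in the Chd8+/+ libraries and -0.027, 0.00064 and -0.013 in Chd8+/- replicates 1, 2 and 3, and the nuclear OXPHOS genes tested had a median length of 1423 bases against 3466.5 for all genes tested. With the length offset the nuclear median was 0.06, with 55 of 78 estimates higher and 20 genes at an unadjusted p under 0.05, 18 of them higher. The mitochondrial median was -0.18, with 8 genes at an unadjusted p under 0.05 in place of 4, all lower. Over all genes with this offset, 55.6% of estimates were higher, 15.3% had an unadjusted p under 0.05, 8.51% higher and 6.82% lower, and the median was 0.017. The summed level of 9 markers of striatal medium spiny neurons was 250 to 312 CPM in Chd8+/- and 348 to 377 CPM in Chd8+/+, with all 9 lower. That of 8 choroid plexus markers was 329 to 388 CPM in Chd8+/- and 450 to 584 CPM in Chd8+/+, with all 8 lower, and no marker of either list was at 0. Endothelial markers, at 206 to 234 CPM in Chd8+/- and 237 to 266 CPM in Chd8+/+, and GABAergic interneuron markers, at 548 to 615 CPM and 638 to 655 CPM, were also lower without overlap, and muscle markers, at 14.4 to 14.8 CPM and 13.7 to 14.3 CPM, were higher. Excitatory neuron markers overlapped, with 1428 to 1505 CPM and 1439 to 1524 CPM. Progenitor markers also overlapped, at 308 to 333 CPM in Chd8+/- and 322 to 360 CPM in Chd8+/+. Of them 9 of 11 were lower and 5 had an edgeR unadjusted p under 0.05, against 17.8% of all genes. Of 5 erythrocyte markers tested, 4 were lower and 3 had such a p, and their summed level overlapped. The part of dissection and cell types in the result was not tested.

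At E12.5, edgeR called none of the 90 OXPHOS genes tested, against 0.00553% of 18081 genes, which again was Chd8 alone, and none had an unadjusted p under 0.05, against 5.15% of all genes, 2.31% higher and 2.84% lower. DESeq2 also called 0 of them, where it called 0.0374% of all genes, 0.015% higher and 0.0225% lower. The genotypes did not overlap for mt-Atp8, which was higher in Chd8+/-, and for Ndufs7, which was lower, against 5.6% and 5.76% of all genes. The median log2 fold change was 0.01 for 77 nuclear genes, of which 49 had a higher estimate, and 0.10 for the 13 mitochondrial genes, of which 10 had a higher one. The mitochondrial share of counts was 2.66 ± 0.22% in Chd8+/+ and 2.88 ± 0.06% in Chd8+/- (SD, n = 3), and the ranges overlapped. The ratio of mitochondrial to nuclear counts was 3.75 to 3.98 in Chd8+/+ and 4.03 to 4.36 in Chd8+/-, without overlap. The summed level of 7 endothelial markers was 221 to 234 CPM in Chd8+/- and 252 to 265 CPM in Chd8+/+, with all 7 lower, 3 of them at an unadjusted p under 0.05, and its part in these values was not tested.

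The 6 nuclear genes with the smallest p at E12.5 all belong to complex I, apart from Ndufa4l2. Ndufs7, an iron-sulfur subunit, was 31.5, 33.7 and 32.2 CPM in Chd8+/+ and 31.5, 27.3 and 29.8 CPM in Chd8+/- (log2 fold change -0.14, edgeR adjusted p = 0.942). Ndufa4l2 had -0.27 and Ndufb2 -0.10, whereas Ndufb4 (0.14), Ndufa11 (0.13) and Ndufb9 (0.09) had higher estimates. Each had an edgeR adjusted p of at least 0.942. Among the mitochondrial genes, mt-Cytb (0.14), mt-Atp8 (0.13), mt-Nd6 (0.11), mt-Co1 (0.11), mt-Atp6 (0.11), mt-Nd2 (0.10), mt-Nd1 (0.10), mt-Nd5 (0.10) and mt-Nd4 (0.10) had estimates close to one another. The 4 with few reads ranged from -0.15 for mt-Nd4l and -0.12 for mt-Nd3 to -0.03 for mt-Co3 and 0.29 for mt-Co2.

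For all 8 mitochondrial genes without nearly complete nuclear copies the estimate was higher in Chd8+/- at E12.5 and lower at P5. The difference itself was tested as the interaction of genotype and stage. edgeR called 0 OXPHOS genes, as it did of all 19676 genes (0.0%). At an unadjusted p under 0.05 there were 7 of 13 mitochondrial genes, all with a lower effect at P5 and 6 of them among those 8, and 3 of 78 nuclear genes, 2 of them higher, against 10% of all genes, 3.15% higher and 6.87% lower. The median interaction was -0.26 for the mitochondrial and 0.06 for the nuclear genes, against -0.02 for all genes, and DESeq2 also called 0 of them, against 0.0938% of all genes, 0.0117% higher and 0.082% lower.

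Genes that build or regulate the pathway were followed as lists. Of 48 tested assembly factors, which put the complexes together, 15 rose and 21 fell between the stages in Chd8+/+, where 41.4% of all genes were higher and 41.7% lower, and the median log2 fold change was -0.11. Coa4, a factor for complex IV, fell from 5.04 to 2.03 CPM (-1.31), and Fastkd3, an RNA-binding protein of mitochondria, from 20.9 to 8.86 CPM (-1.24). For the 19 genes of mitochondrial DNA maintenance and transcription, 13 fell and 2 rose, where 41.7% of all genes were lower and 41.4% higher, with a median of -0.76 against -0.02 for all genes. Ssbp1, which binds single-stranded mitochondrial DNA, went from 62.3 to 19.9 CPM (-1.65, edgeR adjusted p = 2.43e-13) and Tfb1m, an rRNA methyltransferase, from 13.99 to 4.62 CPM (-1.60, edgeR adjusted p = 1.03e-09). Of 12 regulators of nuclear OXPHOS genes, 4 rose and 6 fell, where 41.4% of all genes were higher and 41.7% lower. Nrf1 itself was 85.3, 84.5 and 88.8 CPM at E12.5 and 23.3, 23.2 and 23.9 CPM at P5 (-1.88, edgeR adjusted p = 1.76e-14), and Gabpb2, a partner of the ETS factor Gabpa, fell by 2.68 on the log2 scale. Genes with the NRF1 motif in their start region did not follow one direction, as 3 of the 5 rose and 1 fell.

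Between the genotypes at P5, none of these genes was called by edgeR. DESeq2 called 3 assembly factors higher (Coa3, Pet100 and Uqcc2) of 44 it tested and 1 regulator lower (Esrrg) of 9, against 1.71% and 3.57% of all genes. Assembly factors had 35 of 48 estimates higher in Chd8+/-, with a median of 0.07 and 12 at an unadjusted p under 0.05, all higher, against 17.8% of all genes, 8.0% higher and 9.77% lower. Coa3, needed for early complex IV assembly, was 44.4 ± 1.8 CPM in Chd8+/+ and 50.2 ± 2.0 CPM in Chd8+/- (SD, n = 3; edgeR adjusted p = 0.116), and Pet100 was 7.38 ± 0.85 and 9.62 ± 0.98 CPM (edgeR adjusted p = 0.124). Mgme1, a nuclease of mitochondrial DNA, had an estimate of 0.34, and Lrpprc, which stabilises mitochondrial mRNA, had -0.13. The regulators had a median of -0.04, with Esrra at 0.16 and Esrrg at -0.43.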

How the data were processed

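RNA-seq of 12 libraries was used, with 2 sequencing runs each, which were summed. The deposited values are raw counts per gene that the authors made by trimming the paired-end reads, aligning them to GRCm38 with TopHat2 2.1.0 and counting them with featureCounts 1.5.0 on Ensembl 82 genes, per the file headers for P5; the counting command of the E12.5 table is not given in the sources used here. The deposited lengths (unit: other, bases of merged exons) served for levels per kilobase. Strand was not used in the recorded command, so that the 10 OXPHOS genes with over 10% of their exons shared with another gene are less certain. Among them are Atp5o, Ndufb6, Cox5a and Ndufa13, and also mt-Atp8, Ndufa2 and Cox6a2, whose values are given above.

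Genotypes were compared within each stage, and stages and their interaction in 1 model of the 4 groups, with edgeR 4.0.16 (R 4.3.3, TMM, filterByExpr, quasi-likelihood test, Benjamini-Hochberg adjustment, threshold 0.05). Fold changes, SEs and p-values come from these fits over all genes, and CPM from TMM sizes over the 12 libraries. Alternatives were DESeq2 1.42.0, limma-voom (limma 3.58.1), other scalings, filters and thresholds, a length offset (loess, span 0.5), a block for the replicate number, and leaving out 1 library at a time. Counts without Cox6a2 were added after the data were seen. The edgeR test was also run on simulated P5 counts. The changes planted there were larger than those of the OXPHOS genes between genotypes at P5, so that run does not bear on changes of this size. Depth was 38774591 to 54695236 counts per library, and the chi-square per degree of freedom was 1.18 to 1.55 between runs of a library and 7.12 to 50.0 between libraries of a group, so that spread between libraries exceeded counting error. Symbols were found for 46005 of 46603 identifiers. Tables were made with Python 3.11.15 and pandas 2.3.3, figures with matplotlib 3.10.9.

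The genes and lists were chosen with earlier results of these data known. Named genes are all mitochondrial genes, at each stage the 6 nuclear genes with the smallest p between genotypes, the 5 nuclear genes with the highest and the 5 with the lowest change between the stages, the alternative forms of subunits, of each other list the 2 genes with the smallest p at P5 and the 2 with the largest change between the stages, and Sdha, Cycs and Chd8. Sdhc, Atp5a1, and the genes named as called by DESeq2, without a library or as turned by the length offset, were named after their values were seen.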

Additional observations from a re-analysis of the deposited data

How the results depend on the processing

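At E12.5 and for the interaction, no alternative called an OXPHOS gene. At P5, the count of OXPHOS genes called between genotypes was 20 with every gene of at least 1 count kept (16 nuclear higher, 1 nuclear lower and 3 mitochondrial lower, where 3.18% of all genes were called), 11 with DESeq2 and 1 at a threshold of 0.1. It ranged from 0 to 12 with 1 library left out, and Chd8+/- replicate 2 was the library whose absence gave 12. With 1 library left out, the nuclear median at P5 ranged from 0.04 to 0.12 and the mitochondrial from -0.20 to -0.08, and at E12.5 the nuclear from -0.04 to 0.06 and the mitochondrial from 0.05 to 0.17. Between the stages in Chd8+/+, the length offset moved the nuclear median to 0.15 and the mitochondrial to 0.43, and 1 library left out gave 53 to 59 nuclear and 11 to 12 mitochondrial calls. Of the genes named by rule, the length offset turned mt-Co1 (-0.0054) and Cycs (-0.013) between the stages, and of all 60 nuclear and 12 mitochondrial OXPHOS genes called it turned 4 and 1. Among the same named genes, leaving out 1 library turned estimates that had not passed the test: mt-Nd6 at P5 (from -0.081 to 0.055), Sdha at P5 (-0.040 to 0.0046), mt-Co2 at P5 (-0.72 to 0.14) and between the stages (-0.18 to 0.94), mt-Co3 at E12.5 (-0.29 to 0.34) and Cycs at E12.5 (-0.0058 to 0.094). The cause was not tested.

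The replicate numbers were not taken as a pairing, since not every same-numbered pair correlated above 0.1 (correlations over genes of -0.23, -0.10 and -0.09 at E12.5 and 0.23, 0.11 and 0.04 at P5). With the replicate number as a block, 0 OXPHOS genes were called at either stage, and 56 nuclear and 12 mitochondrial genes between the stages. Over all genes at P5, 4 were called with the block in place of 1, and Chd8 at E12.5 was no longer called. Low counts limit Cox7b2, Cox8b and Cox8c, which were not tested, and mt-Co2 and mt-Co3, which have near-complete nuclear copies and whose tests rest on 13 to 57 counts per library.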

Other observations

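The genes of neighbouring mitochondrial functions are read against all genes, of which 41.4% were higher and 41.7% lower at P5 in Chd8+/+. Of 14 genes of the tricarboxylic acid cycle, which feeds NADH and succinate to the chain, 7 rose and 6 fell, and the median log2 fold change was 0.06. Idh2, the NADP-dependent isocitrate dehydrogenase of mitochondria, went from 184 ± 3.0 to 43.9 ± 1.1 CPM (SD, n = 3; -2.06, edgeR adjusted p = 2.45e-15), and Suclg2, the GTP-forming subunit of succinate-CoA ligase, from 47.7 to 16.4 CPM (-1.54, edgeR adjusted p = 5.71e-12). Of 19 genes of protein import and the outer membrane, 6 rose and 9 fell. Hspd1, the matrix chaperonin, went from 381 to 178 CPM (-1.10), while Tomm20, a receptor of the import pore, went from 137 to 267 CPM (0.96), and both passed edgeR's test.

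A list of 6 tested genes close to the complexes was also measured, with Cox4i1, Cox4i2, Cyc1, Cycs and Ndufab1, whose symbols lie outside the rule, and the left-out assembly factor Cox7a2l. Cyc1, cytochrome c1 of complex III, rose by 0.37 on the log2 scale (edgeR adjusted p = 4.11e-07), and cytochrome c itself, Cycs, rose from 76.2 ± 5.0 to 92.6 ± 4.5 CPM (SD, n = 3; 0.28, edgeR adjusted p = 0.000217). At P5 all 6 had higher estimates in Chd8+/-, with a median of 0.10 and none at an unadjusted p under 0.05, among them Cox4i1 (0.11) and Cyc1 (0.09). For the tricarboxylic acid cycle, 10 of 14 estimates were lower at P5, with a median of -0.04, and 10 of 14 were lower at E12.5. At an unadjusted p under 0.05 there were 2 higher and 1 lower at P5, against 8.0% and 9.77% of all genes, and Idh3g (0.10) and Fh1 (-0.10) had the smallest p. Of the import genes, 14 of 19 had higher estimates, and Tomm22 (0.16) and Timm50 (0.16) had the smallest p. No gene of these lists was called by edgeR between the genotypes, nor by DESeq2 at P5.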
